A study of Mus musculus with 4 samples.

Results

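The enzymes that modify foreign chemicals were followed here as gene families: cytochromes P450 of families Cyp1 to Cyp4, carboxylesterases (Ces), UDP-glucuronosyltransferases (Ugt1 and Ugt2), sulfotransferases (Sult), cytosolic glutathione transferases (Gsta, Gstm, Gstp, Gstt and Gsto) and microsomal glutathione transferases (Mgst). Members were every gene of the count tables whose mouse symbol starts with 1 of these family names, pseudogenes left out. The rule gave 161 protein-coding genes of 31053 gene identifiers. An antisense transcript of the Cyp4x1 locus also matched by name and was left out.

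Counts of transcript 3′ ends were available for 10 libraries of sorted mouse small intestinal crypt cells and for 12 libraries of small intestinal organoids, which are crypt cultures that form all epithelial cell types in Matrigel. The sorted cells came from adult Ret-EGFP mice, in which EGFP inserted at the Ret locus reports expression of the GDNF receptor RET and takes the place of 1 Ret allele. The question of this comparison was what distinguishes RET-expressing epithelial cells from the rest, and that of the organoids was what the RET ligand GDNF changes in crypt epithelium. Animals were 2 to 10 months old and on a C57BL/6J background.

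The 5 Ret-EGFP+ and 5 non-EGFP libraries held 1000 cells each, from 3 male mice, and all carried the same knock-in allele, although the deposited genotype label reads WT. Which mouse gave which library is not stated, so tests treat libraries of the same mouse as independent and their p-values may be too small. The organoids were wild type, grown for 4 days in medium with EGF, Noggin and R-spondin 1, either without addition (control, 6 libraries) or with GDNF and its co-receptor GFRA1 at 500 ng/mL each (GDNF, 6 libraries). The cultures were grown from isolated crypts, without stroma. Each of 3 experiments was 1 mouse with 2 control and 2 GDNF libraries, so the number of animals is 3. The methods name a female mouse for experiments 1 and 2 and a male mouse for experiment 3. The 4 libraries of experiment 1 held 19 to 57 counts of the Y-linked gene Ddx3y and 0 to 2 of Xist, which goes against that label, whereas experiment 2 held 280 to 531 of Xist and 0 of Ddx3y. Of the sorted libraries, those of plate 4, replicate 5 of each group, held 9 to 18 counts of Xist beside Ddx3y, although the mice are given as male. Without that plate 43 members passed the comparison below in place of 53. The share of all genes called fell as well, from 42.8% to 33.2%.

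Total counts were 1113006 to 4717549 per sorted library and 1042028 to 2010359 per organoid library. Sorting marker levels fitted their labels, with Ret at 15.3 to 49.1 CPM (scaled counts, a level relative to the whole library) in Ret-EGFP+ and 0 to 2.27 CPM in non-EGFP libraries. The 2 sorted populations differ in makeup. The 25 enteroendocrine markers listed made up 29.1% to 34.1% of the Ret-EGFP+ counts and 0.456% to 0.843% of the non-EGFP counts. The 10 Paneth cell markers made up 17.3% to 38.6% of the non-EGFP and 0.443% to 0.951% of the Ret-EGFP+ counts, and 17 enterocyte markers summed to 7592 to 17569 CPM against 2001 to 3045 CPM. With bulk libraries, fewer cells of a type and less RNA of a gene per cell cannot be told apart.

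Drug-metabolising enzymes act in sequence. Cytochromes P450, membrane enzymes of the endoplasmic reticulum that draw electrons from the reductase Por, introduce an oxygen atom, and carboxylesterases cleave esters and amides. The products are then joined to glucuronic acid by Ugt enzymes, to sulfate by Sult enzymes or to glutathione by glutathione transferases, and transporters export the conjugates. In the small intestine this chemistry is best known from absorptive enterocytes, where it forms part of the first-pass barrier to drugs and food chemicals. Several of the same families also handle the body's own lipids, steroids, bile pigments and amines.

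Of the 161 members, 89 (55.3%) had at least 1 count in sorted cells and 99 (61.5%) in organoids. Both tables detected 83, 6 were found in sorted cells alone, 16 in organoids alone, and 56 in neither. All 4 Gsta, 7 Gstm, 3 Gstp, 2 Gsto and 3 Mgst genes were detected in both, against 7 of 21 Sult genes. Of 49 Cyp2 genes, 22 were detected in sorted cells and 27 in organoids. The 3 Cyp1 genes were nearly silent: Cyp1a1, the classical target of the dioxin receptor Ahr, gave a level of 1.13 CPM in 1 non-EGFP library and 0 counts in the other 21 libraries, and Cyp1a2 and Cyp1b1 were at 0 throughout. A filter on low counts left 75 members for the test in each table, 67 of them in both.

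**Figure D1:**
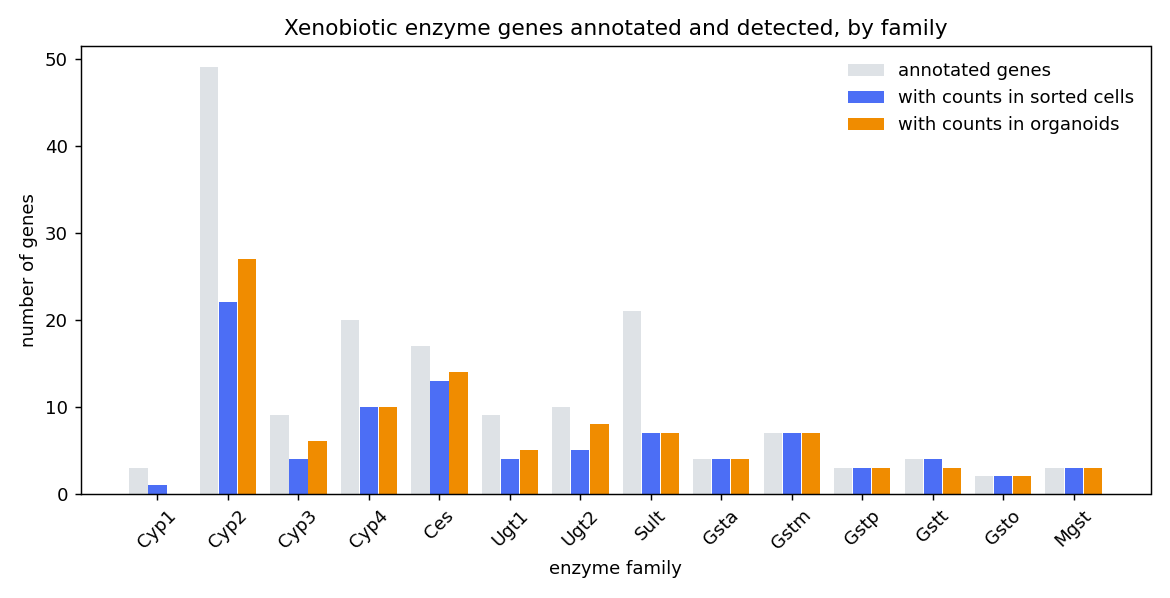
Number of genes in each enzyme family (x axis) that are annotated, that had at least 1 count in sorted cells and that had at least 1 count in organoids (bars, y axis in genes). Glutathione transferase families were detected nearly whole, whereas 7 of 21 Sult genes and 0 or 1 of 3 Cyp1 genes were detected.

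Most tested members differed between Ret-EGFP+ and non-EGFP cells, and most of those were lower in Ret-EGFP+ cells. Of the 75, 40 were lower, 13 were higher and 22 did not pass (edgeR quasi-likelihood test, adjusted p under 0.1 over all genes). The called share was 70.7%, beside 42.8% of all 13672 genes tested, of which 21.4% were lower and 21.5% higher. Values of the 2 groups did not overlap for 25 of the lower and 8 of the higher members, beside 12.1% and 10.6% of all genes tested. The median log2 fold change of the members was -1.69, beside 0.10 over all genes. With library totals as the only scaling the median of all genes was 0.66, and 34 members were lower and 21 higher, so that the lower share of the calls was 61.8% in place of 75.5%. No called member changed sign under any of the alternatives run, and 51 of the 53 had the same sign in each of the 3 plates. Markers of other cells were lower in Ret-EGFP+ libraries as well, namely 10 of 10 tested for Paneth, 13 of 13 for goblet, 13 of 14 for tuft, 11 of 13 for stem and 9 of 13 for lymphoid cells, and 9 of 17 for enterocytes. In these lists 1 stem, 2 lymphoid and 3 enterocyte markers were higher. The part of these cell types in the result was not tested.

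**Figure D2:**
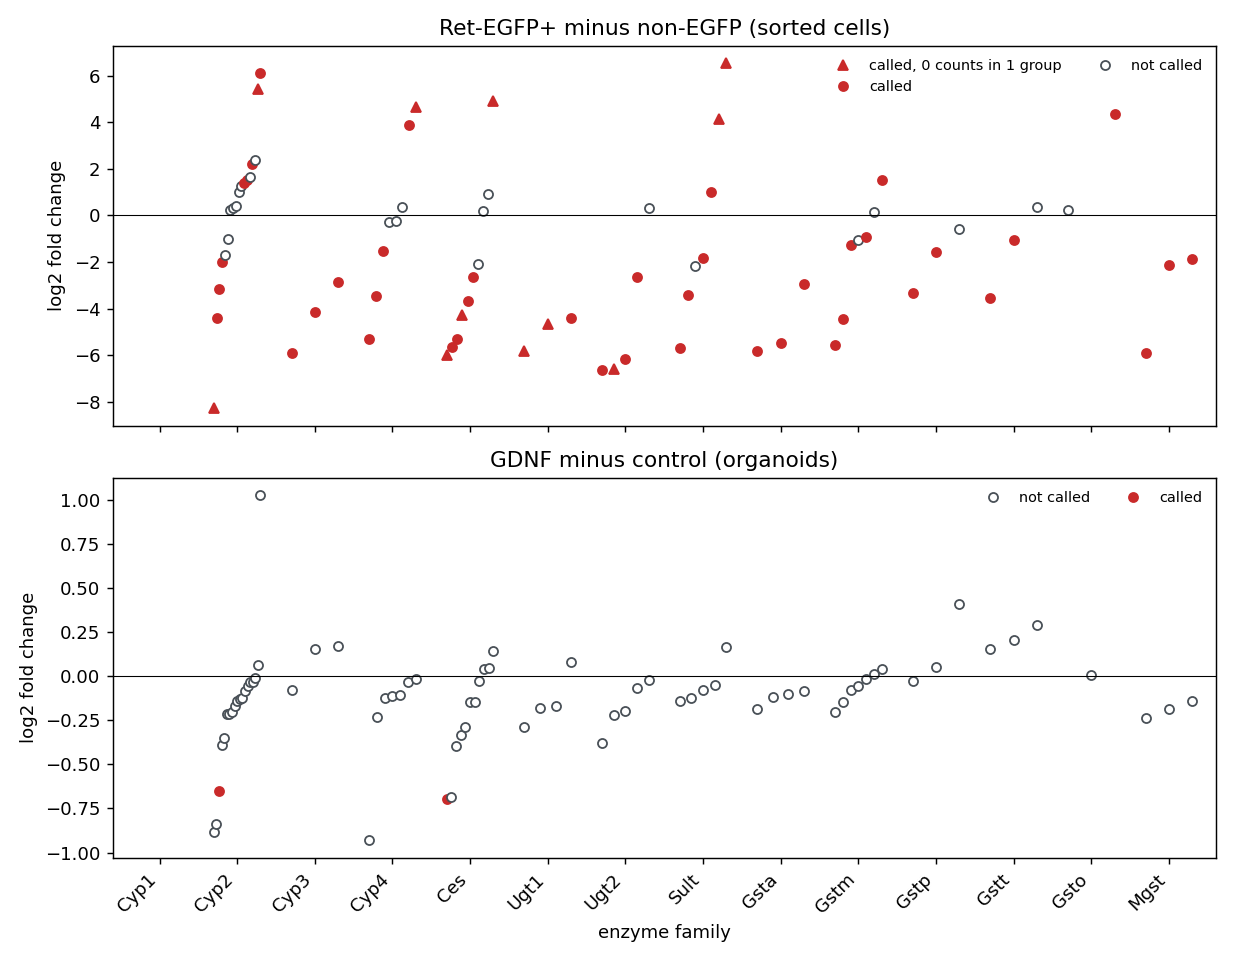
Log2 fold change (y axis) of each tested member by enzyme family (x axis) for Ret-EGFP+ minus non-EGFP cells (top) and GDNF minus control organoids (bottom); filled red symbols passed an adjusted p of 0.1 and triangles mark genes with 0 counts in 1 group, whose fitted value is no measured fold. Cyp3, Gsta, Mgst and Ugt1 members all lie below 0 in the top panel, Cyp2 members lie on both sides, and 2 members are filled in the bottom panel.

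The microsomal glutathione transferases were the most abundant family in non-EGFP cells, and all 3 genes were lower in Ret-EGFP+ cells. These small membrane proteins conjugate glutathione and reduce lipid peroxides, and Mgst2 and Mgst3 also act on leukotrienes. Mgst1 (chr6:138140316-138156755, plus strand, GRCm38) stood at 603, 627, 780, 521 and 581 CPM in non-EGFP replicates 1 to 5 and at 8.49, 6.01, 8.13, 9.41 and 17.8 CPM in Ret-EGFP+ replicates 1 to 5. Every non-EGFP library lay far above every Ret-EGFP+ library, and the log2 fold change was -5.90 ± 0.27 (SE, n = 5 per group, edgeR adjusted p = 1.3e-14). Mgst3 (chr1:167371966-167393841, minus strand), the most abundant of all members in sorted cells, fell from 1838 to 421 CPM (log2 fold change -2.12 ± 0.19, edgeR adjusted p = 2.8e-09), with 359 to 595 CPM in Ret-EGFP+ and no overlap. Mgst2 fell from 344 ± 59.1 to 93.9 ± 12.9 CPM (SD, n = 5; log2 fold change -1.88 ± 0.20). The 3 paralogues therefore ended at different levels in Ret-EGFP+ cells, Mgst3 remaining above 350 CPM and Mgst1 below 20 CPM in every library.

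Cytosolic glutathione transferases split by class. The alpha class was lower throughout, with 3 of 3 tested members called, although Gsta3 (67 counts in all) lost its call in 11 of 18 alternatives, among them the removal of each of 7 single libraries, and had an adjusted p of 0.080. Gsta1 stood at 145, 89.8, 51.1, 30.6 and 68.5 CPM in non-EGFP replicates 1 to 5 and at 3.06, 0, 0, 1.18 and 3.02 CPM in Ret-EGFP+ replicates (log2 fold change -5.47 ± 0.54, edgeR adjusted p = 1.4e-08). Gsta4, the form best known for clearing the lipid peroxidation product 4-hydroxynonenal, stood at 44.2 to 109 CPM against 0 to 4.11 CPM (-5.81 ± 0.58). Neither gene's groups overlapped. The last 500 bases of Gsta1 match the predicted gene Gm3776 closely enough that reads could be shared, so its count is uncertain. Of the 17 Ret-EGFP+ counts of Gsta4, 15 came from replicate 5, without which its log2 fold change was -7.98, and without Ret-EGFP+ replicate 4 that of Gsta3 was -4.88 in place of -2.93.

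In the mu class 4 of 7 members were lower and 1 was higher. Gstm3 fell from 89.7 to 3.86 CPM (-4.45 ± 0.38) and Gstm2 from 41.9 to 0.926 CPM (-5.55 ± 0.62), both without overlap, whereas Gstm1 (57.1 to 23.8 CPM, -1.28 ± 0.30) and Gstm5 (91.96 to 48.5 CPM, -0.93 ± 0.28) changed less. The call of Gstm5 ended with library totals as the only scaling, where its log2 fold change was -0.39. Gstm7, chosen after its values were seen, went the other way, at 9.51 to 28.7 CPM in Ret-EGFP+ against 2.35 to 9.08 CPM (1.51 ± 0.53, edgeR adjusted p = 0.030), a call that ended without Ret-EGFP+ replicate 2. Gstm6 did not pass (22.9 against 20.5 CPM). Members of 1 chromosomal cluster thus ranged from a log2 fold change of -5.55 to 1.51. Reads could be shared between Gstm1 and Gm8834 or Gstm2-ps1, and between Gstm2 and Gm6665, whose transcripts match stretches of their 3′ ends.

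The pi class was lower for Gstp1, the main form of this class (286 to 97.6 CPM, -1.56 ± 0.22, edgeR adjusted p = 3.2e-06), and for Gstp2 (7.06 to 0.704 CPM, log2 fold change -3.33, and -4.20 without Ret-EGFP+ replicate 3), 2 neighbours whose 3′ ends match and may share reads, while Gstp3 (0.628 against 0.432 CPM) did not pass. In the theta class Gstt2 (144 to 69.7 CPM, -1.06 ± 0.25) and Gstt3 (37.8 to 3.49 CPM, -3.56 ± 0.60, and -4.47 without Ret-EGFP+ replicate 2) were lower, Gstt2 losing its call with library totals as the only scaling (-0.52). The 3′ end of Gstt3 matches the predicted gene Gm20441, so its reads could be shared. Gstt1 did not pass (111 against 142 CPM) but was called higher in 3 of 20 alternatives. The omega class, which reduces dehydroascorbate and arsenicals, held no lower member. Gsto1 was abundant in both populations, at 355 to 429 CPM in Ret-EGFP+ and 185 to 524 CPM in non-EGFP libraries (0.22 ± 0.22, edgeR adjusted p = 0.46). Gsto2 stood at 22.8, 23.4, 25.3, 12.3 and 16.2 CPM in Ret-EGFP+ replicates and at 3.53, 0, 0, 0 and 0 CPM in non-EGFP replicates. Its 15 counts in non-EGFP cells all came from replicate 1, and the log2 fold change of 4.33 ± 0.81 (edgeR adjusted p = 0.00015) became 8.55 without that library, a value set against 0 counts.

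**Figure D3:**
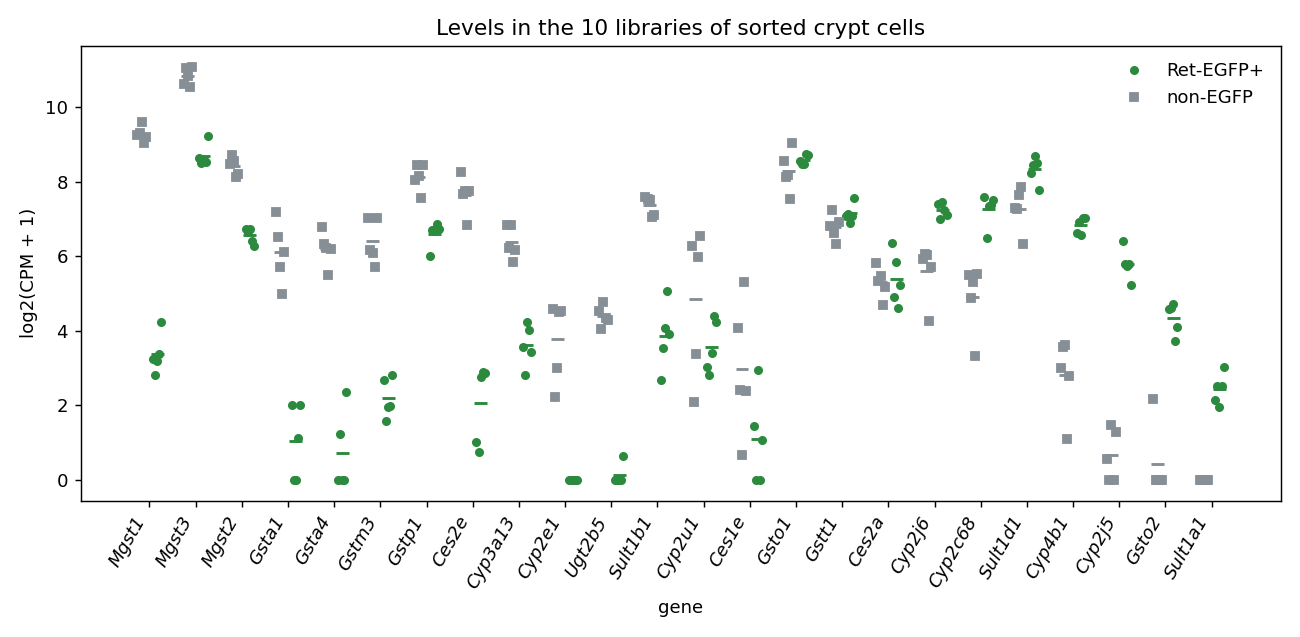
Level of 24 members as log2(CPM + 1) (y axis) in each of 5 Ret-EGFP+ (green circles) and 5 non-EGFP libraries (grey squares), with short bars at the group means of the log values. From left to right stand members that were lower in Ret-EGFP+ cells (Mgst1 to Ces1e), members that did not pass (Gsto1, Gstt1, Ces2a) and members that were higher (Cyp2j6 to Sult1a1).

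Carboxylesterases were lower in 6 of 10 tested members and higher in 1. Ces2e, the most abundant of them in non-EGFP cells, stood at 308, 203, 214, 113 and 212 CPM there and at 1.02, 0.668, 5.74, 6.47 and 6.30 CPM in Ret-EGFP+ replicates (log2 fold change -5.66 ± 0.40, edgeR adjusted p = 3.2e-11). Ces1f (26.2 to 0.501 CPM, -5.32 ± 0.72) and Ces2g (14.3 to 1.22 CPM, -3.67 ± 0.78) likewise showed no overlap. Single libraries set the size of both: Ces1f was at -7.23 without Ret-EGFP+ replicate 5, which held 7 of its 8 counts there, and Ces2g at -4.41 without Ret-EGFP+ replicate 2. Ces2a, a close relative of Ces2e in the same cluster, did not pass, with 23.5 to 81.5 CPM in Ret-EGFP+ and 24.96 to 55.04 CPM in non-EGFP libraries. Ces1e (chr8:93201218-93229619, minus strand) was lower on average but uneven: non-EGFP replicates 1 to 5 gave 16.0, 4.36, 0.588, 38.6 and 4.25 CPM and Ret-EGFP+ replicates 1.70, 0, 6.69, 0 and 1.10 CPM. The groups overlapped, and the log2 fold change of -2.63 ± 0.95 (edgeR adjusted p = 0.036) lost its call without non-EGFP replicate 4, where it was -1.69, and was -3.82 without Ret-EGFP+ replicate 3. The 1 higher carboxylesterase, Ces3a, rested on 15 counts against 0, which sets a lower bound of 5.52-fold (at least 5.52-fold higher, taking 3 counts for the group at 0), and was chosen after its values were seen. Ret-EGFP+ replicates 3 and 4 also held 0 counts of Ces3a, so its groups overlapped.

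The Cyp3 family, which in liver and gut oxidises the widest range of drugs, was lower in all 3 tested members without overlap. Cyp3a13, the most abundant, stood at 113, 73.1, 113, 56.7 and 71.1 CPM in non-EGFP and at 10.9, 6.01, 17.7, 15.3 and 9.87 CPM in Ret-EGFP+ replicates (-2.84 ± 0.32, edgeR adjusted p = 1.1e-07). Cyp3a11 fell from 23.3 to 1.16 CPM (-4.12 ± 0.61). Cyp3a25 had 236 non-EGFP counts against 3, a scaled ratio of 71.3 with a 95% counting interval of 24.1 to 348, and its 3′ end matches that of Cyp3a59.

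The Cyp2 family, the largest, held calls in both directions, with 5 higher, 4 lower and 9 members that did not pass. Its called share was 50%, beside 42.8% of all genes tested, of which 21.5% were higher and 21.4% lower. Cyp2e1 (chr7:140763739-140774987, plus strand), which oxidises ethanol and other small molecules, stood at 23.0, 3.64, 7.05, 21.6 and 22.1 CPM in non-EGFP replicates. It had 0 counts in all 5 Ret-EGFP+ libraries, at least 65.5-fold lower when 3 counts are taken as the floor for the whole group (edgeR adjusted p = 6.7e-06). A stretch of its 3′ end matches Fcho2, so reads could be shared. Cyp2u1 (chr3:131288441-131303227, minus strand), a fatty acid hydroxylase, stood at 76.9, 3.27, 9.40, 62.4 and 91.8 CPM in non-EGFP and at 7.13, 6.01, 9.56, 20.0 and 17.8 CPM in Ret-EGFP+ replicates. Non-EGFP replicates 2 and 3, both of plate 3, lay below or within the Ret-EGFP+ range, so the groups overlapped (-2.002 ± 0.58, edgeR adjusted p = 0.0091), and the call held in all 20 alternatives run.

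The Cyp2j and Cyp2c subfamilies, known for making epoxides and hydroxy acids from arachidonic acid, held 4 of the 5 higher Cyp2 members, but of their 9 tested genes 1 was lower and 4 did not pass. The lower one, Cyp2c55, was chosen after its values were seen and had 38 non-EGFP counts against 1 (edgeR adjusted p = 0.024). Cyp2j5 stood at 83.2, 54.1, 52.1, 54.7 and 36.5 CPM in Ret-EGFP+ and at 0.470, 0, 1.76, 0 and 1.42 CPM in non-EGFP replicates (log2 fold change 6.11 ± 0.53, edgeR adjusted p = 1.1e-09). Cyp2j6, the most abundant Cyp2 member over all 10 libraries, rose from 52.0 to 151 CPM (1.51 ± 0.26), and Cyp2c68 from 33.1 to 158 CPM (2.22 ± 0.30), both without overlap. The lowest non-EGFP value of both genes came from replicate 4, at 18.2 and 9.08 CPM. Cyp2c68 shares its 3′ sequence with Cyp2c40, so which of the 2 genes gave the reads is uncertain. Cyp2c65, chosen after its values were seen, rose from 15.5 to 43.1 CPM (1.396 ± 0.39), also without overlap, and Cyp2d26 did not pass (24.0 against 17.8 CPM). The fifth higher member, Cyp2d10, was also chosen after its values were seen and had 29 counts in Ret-EGFP+ libraries against 0. Ret-EGFP+ replicates 2 and 4 held 0 counts as well, so its groups overlapped. A stretch of its 3′ end matches Cyp2d12 and Cyp2d34.

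Among 8 tested Cyp4 genes, enzymes of fatty acid omega-hydroxylation, 2 were higher and 3 lower, beside 21.5% and 21.4% of all genes tested. Cyp4a10 (27 non-EGFP counts against 2) and Cyp4x1 (13 Ret-EGFP+ counts against 0), both chosen after their values were seen, lost these calls in 12 of 18 and 5 of 17 alternatives, and with DESeq2 size factors or library totals 2 were lower. Cyp4b1 was the most abundant in Ret-EGFP+ cells, at 97.2, 121, 94.7, 129 and 129 CPM in Ret-EGFP+ and at 7.06, 10.9, 11.2, 1.13 and 5.95 CPM in non-EGFP replicates (3.90 ± 0.33, edgeR adjusted p = 8.8e-10). A pseudogene of Cyp4b1 matches its 3′ end. Cyp4f14, which inactivates leukotriene B4, fell from 72.7 to 25.1 CPM (-1.54 ± 0.28), and Cyp4f40 had 164 non-EGFP counts against 3, a scaled ratio of 49.5 with a 95% counting interval of 16.7 to 243. Cyp4f13 did not pass (54.1 against 43.8 CPM), and its log2 fold change turned from -0.30 to 0.27 with library totals as the only scaling. The same scaling turned the median of the Cyp4 family from -0.26 to 0.29.

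The glucuronosyltransferases were low and, where tested, mostly lower. The Ugt1 genes, of 1 locus whose genes share their last exons, together summed to 1.18 to 17.02 CPM in non-EGFP and 0 to 0.668 CPM in Ret-EGFP+ libraries, and all 3 that were tested were lower. Because of the shared 3′ exons, a 3′ count cannot separate most of them, and the values per gene are uncertain. Ugt1a7c is a partial exception, as none of its last 500 exonic bases lie in the others. Up to 442 bases at its transcript ends still match them. Ugt1a6a, with 25 counts against 1, lost its call without non-EGFP replicate 4, where the log2 fold change was -2.89 in place of -4.41, and was -6.07 without Ret-EGFP+ replicate 2, which held its 1 count in that group. In the Ugt2 family 4 of 5 were lower: Ugt2a3 fell from 31.7 to 0.353 CPM (-6.16 ± 0.70), Ugt2b5 had 265 counts against 2 (scaled ratio 120, 95% counting interval 32.9 to 996), and Ugt2b36 had 80 against 0, at least 24.2-fold lower. Non-EGFP replicates 3 and 4 also held 0 counts of Ugt2b36, so its groups overlapped. Without Ret-EGFP+ replicate 5 Ugt2a3 was at -7.51 and Ugt2b5 at -8.60, in place of -6.62, the latter then set against 0 counts. The fourth, Ugt2b35, chosen after its values were seen (56 counts against 9, edgeR adjusted p = 0.092), lost its call in 10 of 18 alternatives, 8 of them the removal of a single library, and with library totals alone 3 Ugt2 genes were lower and 1 higher. Ugt2b34, the most abundant Ugt2 gene, did not pass, at 31.2 to 65.2 CPM in Ret-EGFP+ and 22.4 to 48.9 CPM in non-EGFP libraries.

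Of 7 tested sulfotransferases 3 were higher and 3 lower, beside 21.5% and 21.4% of all genes tested. The calls of Sult4a1 (higher, 8 counts against 0) and Sult2b1 (lower, 164 non-EGFP counts against 40), both chosen after their values were seen, were lost in 8 of 15 and 3 of 20 alternatives, the former on removal of any non-EGFP library and the latter without non-EGFP replicate 2. Sult1b1, an enzyme of phenols and thyroid hormones, stood at 192, 184, 182, 133 and 136 CPM in non-EGFP and at 5.44, 10.7, 15.8, 32.3 and 13.98 CPM in Ret-EGFP+ replicates (-3.43 ± 0.33, edgeR adjusted p = 7.9e-09). Sult1c2 had 85 counts against 1, a scaled ratio of 77.0 with a 95% counting interval of 13.5 to 3080, and that count came from Ret-EGFP+ replicate 3. In the other direction Sult1d1, a sulfotransferase of catecholamines, stood at 301, 349, 415, 360 and 219 CPM in Ret-EGFP+ and at 156, 152, 200, 231 and 78.7 CPM in non-EGFP replicates (1.01 ± 0.24, edgeR adjusted p = 0.0019). The groups overlapped in the lowest Ret-EGFP+ and the highest non-EGFP library, and within each plate Sult1d1 was higher in Ret-EGFP+ cells. Sult1a1 was detected in all 5 Ret-EGFP+ libraries (2.87 to 7.13 CPM, 57 counts) with 0 counts in the other group, which makes it at least 21.0-fold higher. Reads of Sult1a1 could be shared with the predicted gene Gm6939. Sult6b2 did not pass (1.88 against 8.94 CPM, -2.15, edgeR adjusted p = 0.10), but 26 of its 27 Ret-EGFP+ counts came from replicate 1, and without that library it was lower (-5.75, edgeR adjusted p = 0.0011). It also passed in 4 other of 20 alternatives.

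Genes that supply or regulate these enzymes went in both directions where called, and most regulators did not pass. Of all genes tested 42.8% were called, 21.5% higher and 21.4% lower. Of 34 tested redox partners and other oxidoreductases 6 were higher and 14 lower, with Por, the electron donor of the microsomal P450 enzymes, rising from 18.7 to 80.2 CPM (2.05 ± 0.29). The cytochrome b5 gene Cyb5a, which assists the same enzymes, fell from 1252 to 488 CPM (-1.36 ± 0.19). Of 28 genes of cosubstrate supply and other conjugation 7 were higher and 11 lower. The sulfate donor synthase Papss1 rose from 16.6 to 58.4 CPM (1.75 ± 0.33) and Gclm, a subunit of the rate-limiting enzyme of glutathione synthesis, from 76.4 to 253 CPM (1.71 ± 0.22), whereas the UDP-glucuronic acid synthesising Ugdh fell from 64.3 to 35.7 CPM (-0.85 ± 0.26). Of 33 receptors and regulators 25 did not pass, 1 was higher and 7 were lower. Among the lower ones were Nfe2l2, the regulator of antioxidant genes (141 to 52.4 CPM, -1.42 ± 0.23), and Nr1i3, the constitutive androstane receptor (12.8 to 0.650 CPM, -4.24 ± 0.85). Of 22 transporters 6 were higher and 7 lower. The efflux pump Abcb1a rose from 88.8 to 190 CPM (1.11 ± 0.21) and the bile acid exporter subunit Slc51a fell from 130 to 2.81 CPM (-5.43 ± 0.40). The genes named here were chosen after their values were seen, from lists drawn up with earlier results of these data known.

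Promoters were searched for the core letters of the antioxidant response element, TGACNNNGC, which the regulator Nfe2l2 recognises, and of the dioxin response element, GCGTG, which Ahr recognises. RefSeq promoters (GRCm38.p6, 250 bases before to 50 after a start) were found for 135 of the 161 members. On either strand, the antioxidant core lay in 10 of 135 members (7.41%), beside 14% of all 27025 genes, and the dioxin core in 27 members (20%), beside 35.2%. By direction in sorted cells, 4 of 35 lower and 3 of 10 higher members with a promoter held the antioxidant core. These windows show the match in capitals with 10 bases on each side, 5′ to 3′ on the strand of the gene, for lower members first and then for higher ones, since members of both kinds carry it:
Mgst1 (chr6:138140461-138140489): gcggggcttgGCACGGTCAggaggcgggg
Gsta3 (chr1:21240454-21240482): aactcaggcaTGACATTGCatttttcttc
Gstm5 (chr3:107895802-107895830): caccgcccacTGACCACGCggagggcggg
Cyp4f14 (chr17:32917196-32917224): gaaggccagcTGACCAAGCaagaatgcca
Gstm7 (chr3:107931725-107931753): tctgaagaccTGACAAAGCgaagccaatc
Cyp2j6 (chr4:96553618-96553646): actctcagaaGCTTTGTCActtcctgcga
Cyp2c65 (chr19:39060988-39061016): ttggttgtgtGCACAGTCAtatcttaaga
In Mgst1, Cyp2j6 and Cyp2c65 the match is on the strand opposite to the gene. A match of these letters is a description of the sequence and no measured binding site.

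GDNF changed far fewer genes in organoids, and 2 members among them. Of 75 tested members 0 were higher and 2 lower, Cyp2u1 and Ces1e, beside 0.679% of all 12222 genes called (0.54% higher, 0.139% lower and 0.0327% lower without overlap; edgeR quasi-likelihood test with the experiment as a block). For both of them the values of control and GDNF libraries overlapped. At an unadjusted p under 0.05 there were 13 members, beside 845 of all genes. The log2 fold change was negative for 58 of 75 members, with a median of -0.11, beside 49.1% of all genes and a median of 0.00. In these organoids 5 of 13 goblet, 3 of 10 Paneth, 3 of 13 stem and 5 of 23 enteroendocrine markers rose and 0 of 17 enterocyte markers changed (edgeR, adjusted p under 0.1), and the part of these shifts in the members' values was not tested.

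Cyp2u1 stood at 106 and 66.5 CPM in the 2 control libraries of experiment 1, at 52.0 and 51.9 CPM in those of experiment 2 and at 35.1 and 25.04 CPM in those of experiment 3. With GDNF the values were 52.2 and 53.6, 35.8 and 23.8, and 27.4 and 17.1 CPM. Across experiments the groups overlapped, as they did within experiment 3, while within experiments 1 and 2 both GDNF libraries lay below both controls. The log2 fold change was -0.65 ± 0.15 (SE, n = 6 per group, edgeR adjusted p = 0.017), and -0.70, -0.78 and -0.42 within experiments 1, 2 and 3.

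Ces1e stood at 43.1 and 40.6, 34.2 and 17.6, and 25.9 and 34.9 CPM in the control libraries of experiments 1, 2 and 3, and at 31.2 and 24.2, 18.4 and 9.41, and 21.2 and 18.6 CPM with GDNF. Both GDNF libraries lay below both controls in experiments 1 and 3, and the overall groups overlapped. The log2 fold change was -0.70 ± 0.18 (edgeR adjusted p = 0.049), and -0.58, -0.85 and -0.59 within the experiments. Both members had also been lower in Ret-EGFP+ cells, as were 40 of the 75 members tested there, and the call of Ces1e there ended without 1 library. The count of called members was 0 without experiment 1, without experiment 2 or without the second GDNF library of experiment 2, which holds the lowest Ces1e value. It was 1 without experiment 3, without the first control library of experiment 1, or without the second control or second GDNF library of experiment 3, and 3 without the second control or first GDNF library of experiment 2 or the first GDNF library of experiment 3. Cyp2u1 lost its call in 6 and Ces1e in 11 of 25 alternatives, and each kept its sign in all 25.

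**Figure D4:**
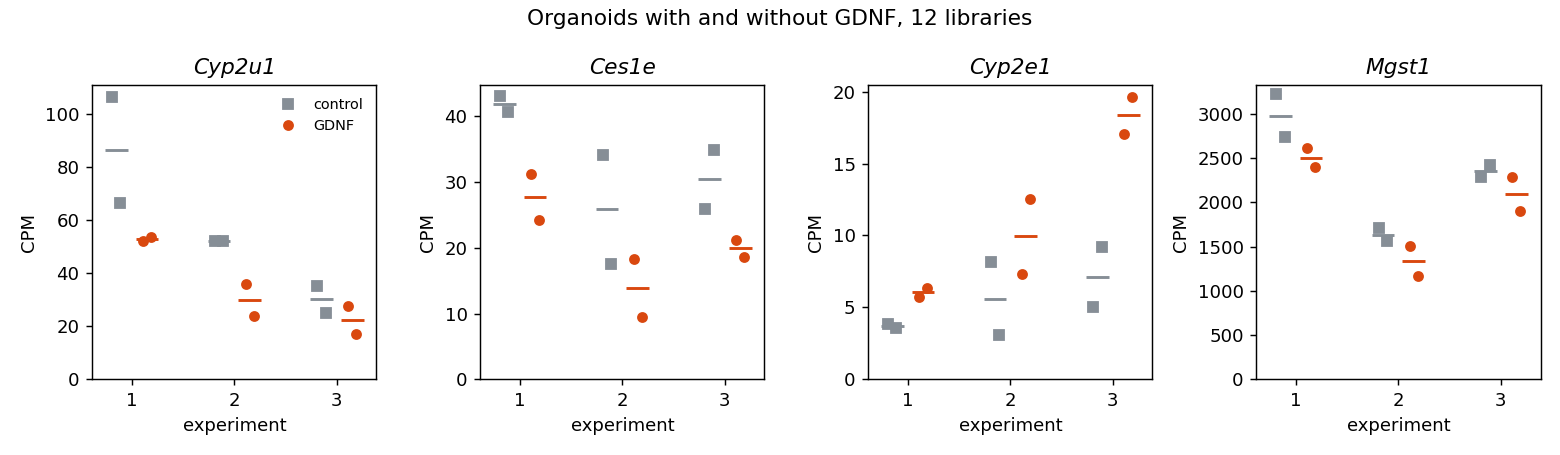
Level in CPM (y axis, from 0) of Cyp2u1, Ces1e, Cyp2e1 and Mgst1 in control (grey squares) and GDNF (orange circles) organoids of experiments 1 to 3 (x axis), 2 libraries each with bars at their means. Cyp2u1, Ces1e and Mgst1 have a lower GDNF than control mean in each experiment and Cyp2e1 a higher one, and Cyp2u1 and Ces1e passed the test.

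Of the other members the largest positive value was that of Cyp2e1. It stood at 3.83 and 3.55, 8.17 and 3.06, and 5.01 and 9.22 CPM in control libraries of experiments 1, 2 and 3 and at 5.73 and 6.34, 7.34 and 12.5, and 17.1 and 19.6 CPM with GDNF. The groups overlapped and the gene did not pass (log2 fold change 1.03 ± 0.29, edgeR adjusted p = 0.13). Cyp2e1 passed in 5 of 25 alternatives, among them counts summed per experiment and treatment (edgeR adjusted p = 0.086) and no filter on low counts (0.065). Under these last 2 alternatives Cyp2d34, chosen after its values were seen, passed in the opposite direction (edgeR adjusted p = 0.096 and 0.097). Its log2 fold change of -0.84 ± 0.25 did not pass in the fit used throughout (0.16). Without the second control library of experiment 2 Cyp2d34 passed as well (-0.99, edgeR adjusted p = 0.070). Mgst1, the most abundant member in organoids, had 2326 ± 625.4 CPM in control and 1980.0 ± 559.9 CPM in GDNF libraries (SD, n = 6; log2 fold change -0.24 ± 0.08, edgeR adjusted p = 0.40). The within-experiment values for Mgst1 were -0.25, -0.29 and -0.17.

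The most abundant members of the other families differed little with GDNF, and none passed. Their log2 fold changes were -0.12 ± 0.08 for Gsta4, -0.08 ± 0.08 for Gstm1, -0.03 ± 0.08 for Ces2e, -0.03 ± 0.09 for Cyp2j6, -0.10 ± 0.09 for Cyp4f14 and 0.15 ± 0.09 for Cyp3a13. Those of Gstp1 (-0.03 ± 0.11), Gsto1 (0.01 ± 0.09), Sult1b1 (-0.12 ± 0.10), Ugt2b34 (-0.07 ± 0.10) and Ugt1a7c (0.08 ± 0.27) were of the same size, and that of Gstt2 was 0.29 ± 0.10 (edgeR adjusted p = 0.39). By family, all tested members had negative values in Cyp4 (7 of 7), Gsta (4 of 4), Mgst (3 of 3) and Ugt2 (5 of 5), and all 3 Gstt values were positive, none of them called. In the related lists 1 of 34 redox genes was lower, and 0 of 30 cosubstrate, 0 of 33 regulator and 0 of 23 transporter genes were called.

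Whether the effect of GDNF differed between the 3 experiments was tested with interaction terms. The count of members called was 0 of 75, beside 0.0409% of all genes, and 2 members had an unadjusted p under 0.05. These were Ces2c, with log2 ratios of 0.45, 0.11 and -0.39 in experiments 1, 2 and 3, and Cyp2c29, with 0.08, -0.49 and -0.27, and the smallest adjusted p was 0.87.

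Levels of many members differed between the 3 experiments, whatever the treatment. Among members with a mean of at least 10 CPM in organoids, 27 of 57 (47.4%) differed over 2-fold between the means of the experiments, beside 8.19% of 7952 genes of that level, and 8 (14%) differed over 4-fold, beside 0.993%. Gstm1 stood at 519 to 624 CPM in experiment 1, at 205 to 247 CPM in experiment 2 and at 1525 to 1614 CPM in experiment 3, with no overlap. The mean of Gstm3 in experiments 1, 2 and 3 was 311, 193 and 1185 CPM, that of Gsta3 225, 75.4 and 528 CPM, and that of Ces1f 129, 58.7 and 365 CPM. These 4 were highest in experiment 3, whereas Cyp2c29 (633, 339 and 49.7 CPM) and Cyp2d34 (16.8, 23.6 and 1.92 CPM) were lowest there. Apart from Gstm1 and Cyp2c29, these genes were chosen after their values were seen. Each experiment is 1 mouse, so that mouse, its sex, culture and day cannot be told apart, and no test was made.

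**Figure D5:**
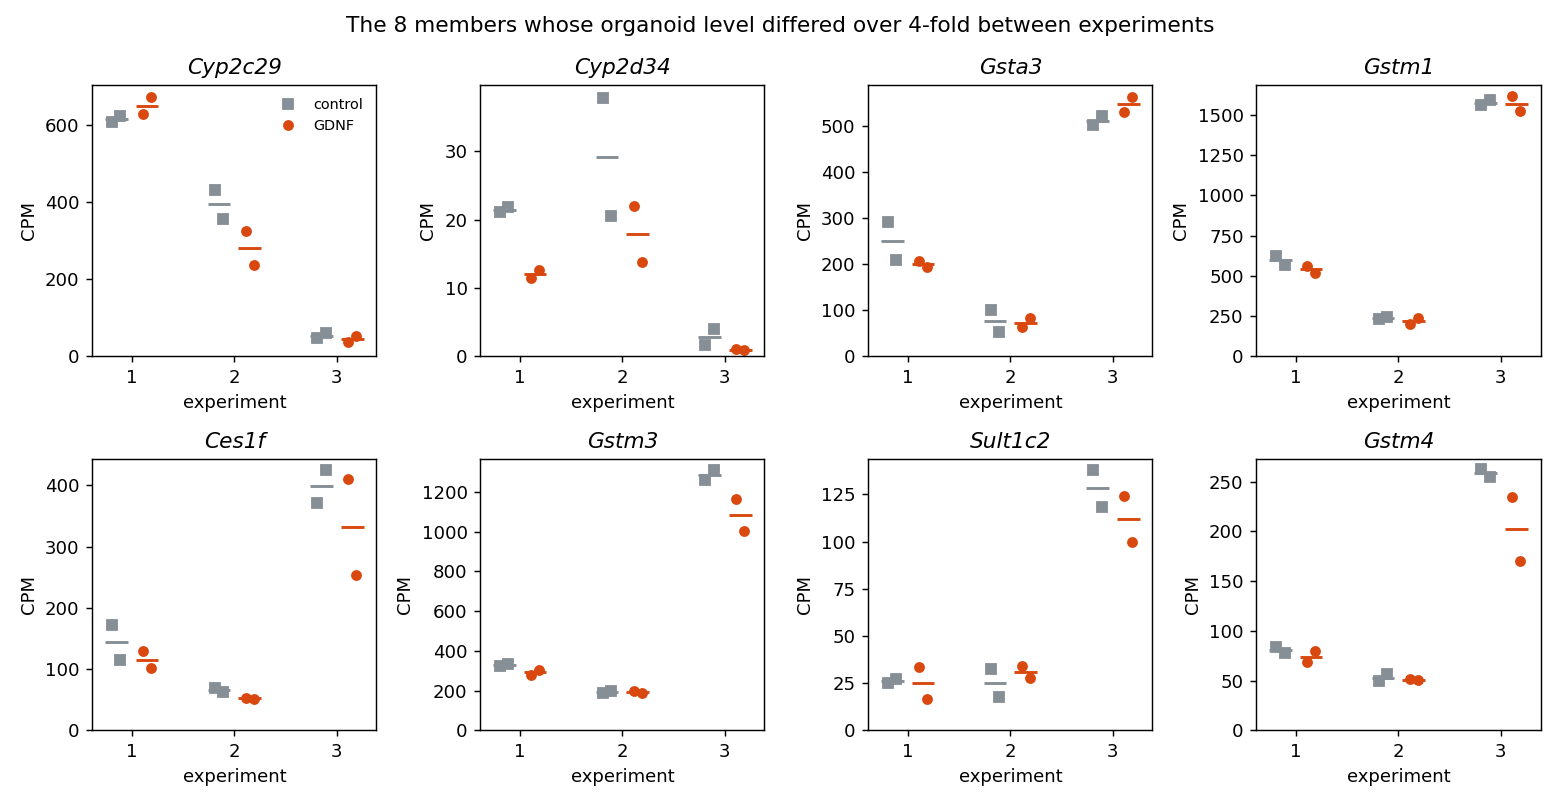
Level in CPM (y axis, from 0) of the 8 members whose organoid mean differed over 4-fold between experiments 1 to 3 (x axis); grey squares are control, orange circles GDNF libraries, and bars are means of 2. Gsta3, Gstm1, Gstm3, Gstm4, Ces1f and Sult1c2 are highest in experiment 3 and Cyp2c29 and Cyp2d34 lowest, in control and GDNF libraries alike.

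Set side by side, organoids gave members a larger share of their counts than crypt cells, 1.13% to 1.91% against 0.338% to 0.549% in non-EGFP and 0.301% to 0.322% in Ret-EGFP+ libraries. The tables were made from different material and scaled separately, so no test was made. Cyp2c29 had 6128 counts in organoids and 4 in sorted cells, Gsta2 1683 and 14, and Cyp2d34 241 and 0. The 3′ end of Gsta2 matches Gsta1, Gm3776, Gm10639 and Gm8074, so which gene gave its reads is uncertain. Cyp2j5 had 2 counts in organoids and 671 in sorted cells, and Gsto2 11 and 250. Of the members higher in Ret-EGFP+ cells, Cyp2j5 and Gsto2 were thus nearly undetected in organoids with or without GDNF, while Cyp2j6 stood at 397 CPM and Sult1d1 at 145 CPM in control organoids.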

How the data were processed

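Reads were mapped by the authors to GRCm38 (STAR 2.7.8a), and the deposited tables hold raw counts for each gene and library, made with BRB-seqTools 1.4. The study describes these as distinct molecular identifiers of 8 bases, but 32 values of the sorted-cell table exceed the 65536 sequences that 8 bases allow. Strand use in counting is not given in the sources used here. Labels and deposited sample sheets gave the groups, and the row of a reporter gene was left out.

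Tests used edgeR 4.0.16 (R 4.3.3, quasi-likelihood, TMM scaling) on genes with 5 or more counts whose normalized counts averaged 1 or more. P-values were adjusted over all genes (Benjamini-Hochberg) and called under 0.1, as in the study's methods. Sorted libraries were compared without a block, organoids with the experiment as a block. A standard error (SE) was derived from the fold change and its F statistic. CPM were TMM-scaled and not divided by length, as priming is at the 3′ end. Where a group had 0 counts, 3 counts over the group were used as floor. Ratios with 1 to 3 counts have exact 95% intervals, which cover counting error only. Floor and intervals take each count as a separate molecule. That is uncertain for the sorted-cell table, given its values above the number of possible identifiers. Positions came from GENCODE (GRCm38). The last 500 exonic bases were compared with blastn 2.17.0 (98% identity over at least 61 bases), and 36 members matched another gene, 21 of them with counts. Named were the 4 markers Mgst1, Cyp2e1, Cyp2u1 and Ces1e and, per family, the most abundant member, up to 3 called members of smallest p with a mean of at least 10 counts in the higher group and the most abundant one not passed, together with members called in both comparisons and the 2 of smallest interaction p. Members and lists were chosen with earlier results of these data known. Alternatives were DESeq2 1.42.0, other scalings, filters, thresholds and blocks, and leaving out libraries. The fits were tested on simulated data. The simulated libraries were independent, so that check does not bear on effects of mouse, plate or experiment.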

Additional observations from a re-analysis of the deposited data

Results flagged for a closer look

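In 14 of 128 groups of named members, 1 library lay apart from the other libraries of its group by Dixon's test at 95%. Chance gives about 5% for measured values, but that rate does not apply to the 5 groups whose other libraries were all at 0 (Cyp1a1, Gsto2, Sult1c2, Ugt1a6a in Ret-EGFP+ and Ugt2b5), where any count stands apart. In Ret-EGFP+ replicate 5, Mgst1 (17.8 CPM, others at most 9.41) and Mgst3 (595 CPM, others at most 399) were high and Ugt2b5 was detected (0.548 CPM, others 0). In Ret-EGFP+ replicate 3, Ces1e (6.69 CPM) and Sult1c2 (0.478 CPM) were high. In Ret-EGFP+ replicate 2, Cyp2c68 was low (88.9 CPM, others at least 163) and Ugt1a6a detected (0.668 CPM). In Ret-EGFP+ replicate 1, Gstp1 was low (63.5 CPM) and Sult6b2 high (8.83 CPM), and in replicate 4 Gsta3 was high (2.35 CPM). Among non-EGFP libraries the values apart were Cyp1a1 in replicate 5 (1.13 CPM, others 0), Cyp3a25 in replicate 3 (24.1 CPM), Gsto2 in replicate 1 (3.53 CPM, others 0) and Ugt1a6a in replicate 4 (12.5 CPM, others at most 1.70). No organoid group of a named member was apart.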

How the results depend on the processing

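In sorted cells, 53 members passed (13 higher, 40 lower), 32 with edgeR's own expression filter (8 higher, 24 lower) and 35 with a mean of at least 10 counts (8 higher), where 46 and 49 members were tested. The share of all genes called was 42.8%, 48.1% and 47.9% in turn. With library totals alone 21 were higher, among them 3 Ces and 3 Cyp4 members, and 47.7% of all genes were called. Of named members that did not pass, Gstt1 was called higher in 3 and Gsto1 in 2 of 20 alternatives. Ces2a, Cyp2d26 and Ugt2b34 were called higher in 1 of 20 each. Leaving out single libraries gave 48 to 52 members, beside 37.7% to 42% of all genes. Of the 53, 38 passed in every alternative that tested them and 15 did not in at least 1. In organoids, 2 members passed (0 higher, 2 lower), 1 with DESeq2 (1 lower), 4 with no filter on low counts or with counts summed per experiment and treatment (1 higher each), 1 at an unadjusted p under 0.05 with a log2 fold change beyond 1 (1 higher, 0 lower), 0 without experiment 1 or 2 (0 lower) and 1 without experiment 3 (1 lower). Leaving out single organoid libraries gave 0 to 3 members, 0 to 1 higher and 0 to 3 lower, beside 0.434% to 0.756% of all genes. Without the replicate block of the experiment 0 members passed (0 lower), and 0.0573% of all genes. Sorted libraries of equal replicate number shared a plate. Their deviations from the group means over all tested genes correlated at -0.00384 to 0.0911. Such a check cannot show whether they came from the same mouse. With the plate as a term 49 members passed, beside 38.3% of all genes tested.

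Signs turned only for members that did not pass. With library totals alone Cyp4f13 was at 0.27. Without single sorted libraries Ces2a ranged from -0.13 to 0.40 and Gstm6 from -0.044 to 0.36. Without experiment 3, Ces2e was at 0.038, Cyp2j6 at 0.012, Gsto1 at -0.0085, Gstp1 at 0.13 and Sult1b1 at 0.0044, and without experiment 1, Gsto1 was at -0.011, Ugt1a7c at -0.14 and Ces2c at -0.18. With summed counts Gstp1 was at 0.011. Without single organoid libraries the values ranged from -0.052 to 0.014 for Ces2e, -0.070 to 0.028 for Cyp2j6, -0.059 to 0.049 for Gsto1, -0.14 to 0.054 for Gstp1, -0.011 to 0.19 for Ugt1a7c, -0.14 to 0.014 for Ugt2b34 and -0.045 to 0.17 for Ces2c. The filters change how many genes are tested; the cause of the other changes was not tested. The mean of at least 10 counts and the fit without plate 4 (43 members, beside 33.2% of all genes) were chosen after seeing the data. Low counts limit Ces1g, Ces3a, Cyp4x1, Sult4a1 and the Ugt1 genes.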
